A study of Mus musculus with 468 samples.

Results

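Macrophages are the most numerous immune cells of fat, and their abundance differs widely between animals on the same diet. Here the adipose libraries with the most and the least RNA of Adgre1 were compared over all other genes. Adgre1 encodes F4/80, a surface receptor of the adhesion G protein-coupled receptor family by which mouse macrophages are commonly recognised. The animals were Diversity Outbred mice, each of which is genetically distinct and bred from several inbred founder strains, and each gave 1 library. Their diet was high in fat (45 percent) and in sugar, and per the methods of the study the tissue was the gonadal fat pad. The labels give a single group and no sex, age, weight or batch. Mice of both sexes were used, per the methods of the study.

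The libraries were selected on their own Adgre1 level. Counts were divided by the library total and scaled to 1000000 (CPM), and the libraries were separated into those without any count of Ddx3y, a gene of the Y chromosome (48.5% of the series), and those with counts of it (51.5%). They are called Ddx3y-negative and Ddx3y-positive libraries below. Within each stratum the 25% of libraries with the lowest and the 25% with the highest Adgre1 CPM were taken, the low and the high group. This gave 57 low and 57 high Ddx3y-negative libraries and 60 low and 60 high Ddx3y-positive libraries, 50% of all libraries of the series. The middle 50% of each stratum entered neither group and were used for a separate test. Xist, an RNA of female cells, had medians of 480.04, 568.5 and 592.28 CPM in the low, middle and high Ddx3y-negative libraries. In the Ddx3y-positive libraries its medians were 0.339, 0.153 and 0.164 CPM. The strata are therefore read as females and males, and differences between them may include any effect of sex. Only 2 Ddx3y-negative libraries, both in the middle, had Xist under 50 CPM, and they were kept.

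Adipose tissue macrophages descend from resident cells seeded early in life and from blood monocytes that enter the tissue, where they mature under the growth factor receptor Csf1r. In lean fat most of them sit along vessels, carry the mannose receptor Mrc1 and the hyaluronan receptor Lyve1, and take up debris. In expanding fat, macrophages gather around dying adipocytes, take up their lipid, digest it in lysosomes, and carry the integrin Itgax and the lipid receptor Trem2. They are therefore called lipid-associated macrophages. In bulk tissue, more cells of a type and more RNA per cell cannot be told apart.

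In Ddx3y-negative libraries the Adgre1 level had a median of 21.9 CPM (9.05 to 27.8) in the low group and 66.1 CPM (49.4 to 730.1) in the high group. In Ddx3y-positive libraries it was 37.8 CPM (13.8 to 45.9) in the low group and 183.7 CPM (115.01 to 645.1) in the high group. These values chose the groups and are given without a test. The libraries next to the limits were close to each other: in Ddx3y-negative mice the last library inside the low group had 27.8 CPM and the first outside it 28.1 CPM, and the last outside the high group had 49.37 CPM and the first inside it 49.41 CPM. In Ddx3y-positive mice the corresponding values were 45.9 and 46.1 CPM at the lower limit and 113.2 and 115.01 CPM at the upper limit. The high group of the Ddx3y-negative mice had a median close to that of the middle libraries of the Ddx3y-positive mice (65.7 CPM), so the same label covers different absolute levels in the 2 strata.

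**Figure D1:**
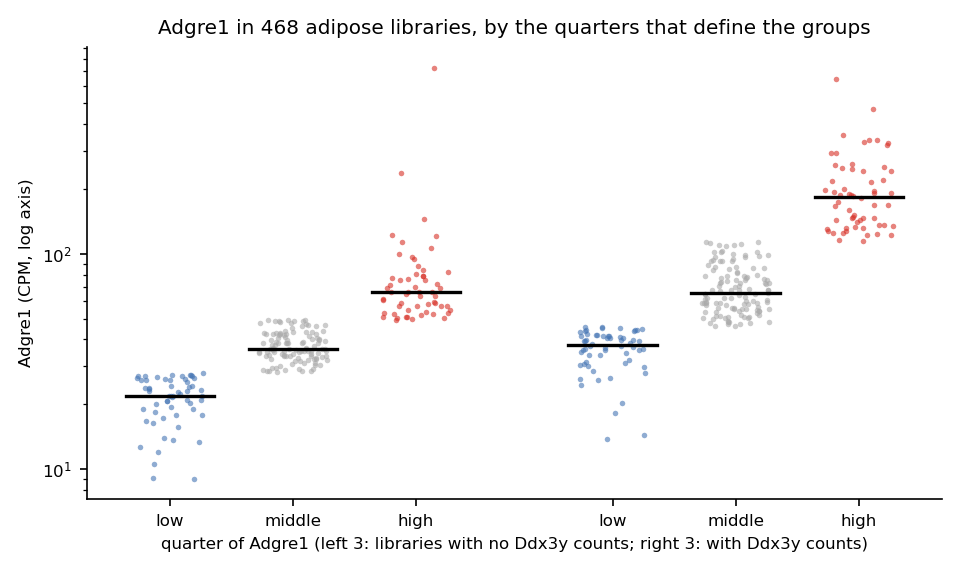
Adgre1 level (CPM, log axis) of each library of the series by group (low, middle, high), for libraries without (left) and with (right) Ddx3y counts; black lines are medians. The medians of the low and high groups are 21.9 and 66.1 CPM on the left and 37.8 and 183.7 CPM on the right, and 1 library of the left high group stands at 730.1 CPM.

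The label was checked against 11 other macrophage markers (Csf1r, Cd68, Mrc1, C1qa, C1qb, C1qc, Lyz2, Mpeg1, Cd14, Fcgr1 and Mertk). Their mean log2 CPM lay above the median of the stratum in 57 of 57 and 60 of 60 high libraries, and below it in 57 of 57 and 60 of 60 low libraries. One Ddx3y-negative library of the high group, mouse DO021, stood apart. It had the highest Adgre1 level of all (730.1 CPM), but of the 11 other markers 6 lay above and 5 below the median of its group. Csf1r stood at 166.3 CPM against a median of 207.97 CPM and Mrc1, the lowest of the group, at 85 CPM against 214.9 CPM, while C1qc stood at 178.8 CPM against 101.8 CPM and Cd14, the highest of the group, at 55.2 CPM against 17.5 CPM. Itgax stood at 3.52 CPM against 14.9 CPM, and Fcrls, an Fc receptor-like gene, at 485.7 CPM against 30.3 CPM. Tlr1 and Fpr1, chosen after their values were seen, stood at 126.9 and 35.4 CPM. In any other library of the series they reached at most 25.02 and 2.25 CPM. Siglecf, chosen in the same way, lay near the median of the group (0.488 against 0.547 CPM). Without this mouse the counts given below changed from 12287 to 12242 called genes in Ddx3y-negative libraries and from 3.66% to 3.61% of genes with a 2-fold change in both strata.

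In units of 1000000 expected counts, the median total lay between 79.7 and 83.4 in the 4 groups (35.3 to 137.8 over single libraries). Other properties of the libraries moved with the groups. Transcripts encoded by the mitochondrial genome took a median of 12.7% of the counts in low and 4.997% in high Ddx3y-negative libraries, and 5.69% and 4.03% in Ddx3y-positive libraries. A ribosomal RNA gene (CT010467.1) took 1.68% and 1.74%, and 1.61% and 2.45%, with 1 low library of each stratum at 19.2% and 28.4%. Libraries with transcripts of a neighbouring organ (liver, skeletal muscle or male accessory glands, for instance) numbered 9 of the low and 2 of the high Ddx3y-negative libraries, and 10 and 4 of the Ddx3y-positive libraries. Their part in the results was tested only by leaving such libraries out.

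All changes below are log2 ratios of the high over the low group from 1 edgeR quasi-likelihood fit of 18370 genes, given with their standard error, and p-values were adjusted by the Benjamini-Hochberg method over all genes; "rose" and "fell" mean an adjusted p under 0.05. In Ddx3y-negative libraries 6973 genes rose (38% of those tested) and 5314 fell (28.9%). At least 2-fold, 5.42% of all genes rose and 2.71% fell. In Ddx3y-positive libraries 5407 genes rose (29.4%) and 7350 fell (40%), and 1040 rose (5.66%) and 892 fell (4.86%) at least 2-fold. With more than 50 libraries a group, small changes passed the test, so the share of all genes is the measure against which each gene group has to be read.

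The split between higher and lower genes depended on the scaling, which compares most genes with each other (TMM, used here) or divides by the total count. Of the called genes, 56.8% were higher in the high Ddx3y-negative libraries with TMM, and 86.7% with the total count only, which also moved the median change of all genes from 0.05 to 0.32. In Ddx3y-positive libraries the share was 42.4% and 56.2%, and the median of all genes -0.06 and 0.03. Changes below are therefore read relative to the median of all genes. Among the genes named below, Csf1r, Ctsb, Selenop, Gys1, Npdc1, Acsm3, Itgad and others overlap another annotated gene, and reads there may be shared. CPM values are per total count and given as medians, while the fitted changes use TMM and compare means, so a fitted change can lie below or above the ratio of the CPM medians.

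A core of genes moved alike in both strata. In both, 3857 genes rose (21%) and 3531 fell (19.2%), while 1799 genes were called in opposite directions, of which 1274 rose in Ddx3y-negative and fell in Ddx3y-positive libraries and the others did the reverse. At least 2-fold in both, 569 genes rose (3.10%) and 0.561% fell. The middle libraries, which neither group contained, gave a check in other mice: over those libraries 3170 genes rose (17.3%) and 3259 fell (17.7%) with log2 Adgre1. That fit used a single slope common to both strata, so opposite slopes in the strata could cancel. Of the 569 genes that rose 2-fold in both strata, 490 also rose in the middle libraries and 0 fell there, and of those that fell 2-fold in both, 51 also fell there and 0 rose. Complete separation was rare. In 7 genes all 57 high Ddx3y-negative libraries lay above all 57 low ones, in 61 genes all 60 high Ddx3y-positive libraries did, and in 0 genes of either stratum did all lie below. Nckap1l, a subunit of the actin-regulating WAVE complex of blood cells, and Cd48, a surface protein of leukocytes, both chosen after their values were seen, separated in both strata. Nckap1l had 16.7 (7.68 to 25.99) CPM in low and 46.3 (26.5 to 166.8) CPM in high Ddx3y-negative libraries, and 31.3 (12.5 to 51.4) and 159.2 (60.5 to 392.4) CPM in Ddx3y-positive libraries (median, lowest to highest). Cd48 had 3.44 (1.63 to 5.61) and 9.26 (6.37 to 25.7) CPM, and 5.91 (2.65 to 9.33) and 21.2 (10.8 to 53.5) CPM.

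Genes that mark macrophages in general rose with few exceptions, and more in Ddx3y-positive libraries. Of the 20 listed identity genes other than Adgre1, 20 rose in Ddx3y-negative libraries, 11 of them at least 2-fold, and 18 rose in Ddx3y-positive libraries, 16 at least 2-fold, where 1 fell. The median change was 1.13 and 1.602, and 18 also rose over the middle libraries. The groups were also further apart in Adgre1 itself in Ddx3y-positive libraries (medians 37.8 and 183.7 CPM, against 21.9 and 66.1 CPM). The part of that wider span in the larger rise was not tested for this list. Mpeg1, which encodes the pore-forming protein perforin-2, had the largest change of the list (mean over both strata). Its level was 27.7 (13.6 to 58.4) CPM in low and 96.6 (32.9 to 466.5) CPM in high Ddx3y-negative libraries, where 52 of 57 high libraries lay above the highest low one. In Ddx3y-positive libraries it was 61.5 (28.6 to 160.3) and 466.9 (125.4 to 1243) CPM, and 59 of 60 lay above. The change was 1.86 ± 0.12 and 2.83 ± 0.12 (edgeR adjusted p = 1.6e-35 and 6.89e-60). Within 5 blocks of consecutive mouse numbers the difference of its mean log2 CPM, high minus low, lay between 1.75 and 2.29 in Ddx3y-negative and between 2.72 and 3.04 in Ddx3y-positive libraries. Lyz2, the lysozyme of myeloid cells and the most abundant gene of the list, went from 160.6 (66.8 to 307.4) to 451.9 (211.7 to 1163) CPM and from 278.8 (91.3 to 486.7) to 999.5 (392.9 to 2963) CPM, a change of 1.32 ± 0.09 and 1.94 ± 0.09.

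The growth factor receptor Csf1r separated the groups almost completely. Its level was 91.2 (39.4 to 142.8) CPM in low and 207.97 (125.4 to 349.3) CPM in high Ddx3y-negative libraries, and 144.1 (52.5 to 240.7) and 347.9 (223.6 to 695.4) CPM in Ddx3y-positive libraries. The change was 0.97 ± 0.06 and 1.24 ± 0.06, and 56 of 57 and 59 of 60 high libraries lay above every low one. Mertk and Cd163, chosen after their values were seen, did not follow in Ddx3y-positive libraries. Mertk, a receptor for the uptake of dying cells, changed by 0.23 and -0.21 and so fell in the second stratum (not with the total count only, under which 0 of the 20 were called lower), and Cd163, the haemoglobin receptor of resident macrophages, changed by 0.48 and 0.05 (edgeR adjusted p = 0.607 in the second).

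The lipid-associated genes moved unevenly. Of 18 genes, 12 rose and 2 fell in Ddx3y-negative libraries, and 16 rose and 2 fell in Ddx3y-positive libraries (median change 0.76 and 1.22). With the total count only, 16 rose and 0 fell in the first stratum. The secreted elastase Mmp12 led the list. Its level was 0.822 (0.0542 to 20.9) CPM in low and 14.7 (0.201 to 220.4) CPM in high Ddx3y-negative libraries. In Ddx3y-positive libraries it was 8.32 (0.652 to 56.7) CPM and 245.5 (4.75 to 1143) CPM. The change was 3.85 ± 0.33 and 4.64 ± 0.33, which is 14.4-fold and 24.9-fold (edgeR adjusted p = 6.56e-24 and 1.72e-31).

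Itgax, the alpha subunit of the integrin CD11c, had 1.32 (0.232 to 8.15) CPM in low and 14.9 (1.05 to 157.2) CPM in high Ddx3y-negative libraries. In Ddx3y-positive libraries it had 6.94 (1.31 to 33.3) and 145.3 (22.7 to 523.2) CPM, and 59 of 60 high libraries lay above every low one, against 32 of 57 in the first stratum. The change was 3.54 ± 0.25 and 4.30 ± 0.25, and over the middle libraries Itgax rose by 2.24 ± 0.21 log2 units per doubling of Adgre1. Within the blocks of mouse numbers the difference was 2.29 to 3.87 and 3.88 to 4.86. Gpnmb, a membrane glycoprotein of lysosomes, named after its values were seen, changed by 3.05 and 4.22. Within the high Ddx3y-negative group Itgax spread over more than 2 orders of magnitude, and its lower end lay inside the range of the low group.

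Trem2, the lipid receptor for which these cells are best known, was spread widely in every group. Its level in low Ddx3y-negative libraries was 11.7 (0.949 to 84.8) CPM and in high ones 21.4 (1.77 to 117.8) CPM, with wide overlap. In low Ddx3y-positive libraries it was 12.3 (0.780 to 142.97) CPM and in high ones 75.99 (7.91 to 220.5) CPM, so the highest library of the low group lay above the median of the high group. The change was 0.60 ± 0.27 and 1.22 ± 0.27 (edgeR adjusted p = 0.0406 and 1.73e-05), and over the middle libraries the slope was 0.13 ± 0.31 (adjusted p = 0.785). The low library with the most Trem2 had 0.709 CPM of Itgax in the Ddx3y-negative stratum and 10.4 CPM in the Ddx3y-positive stratum. Trem2 was thus high in these libraries although Itgax was low. Members that adipocytes express in abundance moved little in Ddx3y-negative libraries: the fatty acid transporter Cd36 changed by -0.02 and -0.11 and the lipase Lpl by 0.05 and -0.28, and with the total count only both were called higher in the first stratum (0.25 and 0.31).

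Genes of resident perivascular macrophages rose with smaller medians than the identity genes. Of 16, 16 rose in Ddx3y-negative libraries, 2 of them 2-fold, while 10 rose and 1 fell in Ddx3y-positive libraries (median change 0.73 and 0.46). Mrc1 went from 95.2 (38.5 to 177.3) to 214.9 (85.003 to 411.5) CPM and from 132.4 (39.6 to 201.2) to 307.1 (187.3 to 806) CPM, a change of 0.91 ± 0.07 and 1.20 ± 0.06. Lyve1 went from 22.2 (8.86 to 54.9) to 36.2 (14.5 to 88.8) CPM in Ddx3y-negative libraries and stayed at 38.6 (16.03 to 70.2) and 38.5 (16.2 to 77.6) CPM in Ddx3y-positive ones. Its change was 0.46 ± 0.10 in the first and -0.04 ± 0.10 in the second stratum, where it was not called (edgeR adjusted p = 0.726). Lymphatic vessels express Lyve1 too. The chemokine Ccl8, the leading gene of the list, changed by 1.97 and 1.88, and Selenop, the selenium transport protein and its most abundant gene, by 0.19 and 0.40.

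Ratios of 2 genes within a library move little with its scaling (0.5 CPM was added to both genes), and 6 of them were tested by permutation (two-sided, 100000 resamples, smallest possible p 1e-05, adjusted over 12 tests). The log2 ratio of Itgax to Mrc1 was -5.53 ± 0.92 (SD) in low and -3.86 ± 1.59 in high Ddx3y-negative libraries, a difference of 1.67, and -4.12 ± 0.89 and -1.06 ± 0.82 in Ddx3y-positive libraries, a difference of 3.06 (permutation p = 1e-05, adjusted p = 1.33e-05, in both). Lyve1 changed against Csf1r by -0.52 and -1.29, and Ly6c2, a marker of circulating monocytes, by -0.64 and -1.25 (permutation p = 1e-05, adjusted p = 1.33e-05, in each). Csf1r itself rose with the groups, so a gene that did not change would also fall against it. With the total count only, Csf1r changed by 1.24 and 1.34, Lyve1 by 0.74 and 0.05, and Ly6c2 by 0.63 and 0.12. These 2 ratios therefore do not show a loss of Lyve1 or Ly6c2. The ratio of Trem2 to Csf1r differed by 0.89 in Ddx3y-positive libraries (permutation p = 0.00063, adjusted p = 0.000756) and by -0.10 ± 0.28 (SE) in Ddx3y-negative ones (permutation p = 0.733, adjusted p = 0.733). Its SD was 1.82 in low and 0.65 in high Ddx3y-positive libraries, and 1.64 and 1.29 in Ddx3y-negative ones. Some low libraries had much Trem2 and little Itgax, so this ratio alone does not measure lipid-associated macrophages. Mki67, a protein of dividing cells, gained on Csf1r by 0.87 in Ddx3y-positive libraries (permutation p = 1e-05, adjusted p = 1.33e-05) and by 0.23 ± 0.15 in Ddx3y-negative ones (permutation p = 0.123, adjusted p = 0.134).

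**Figure D2:**
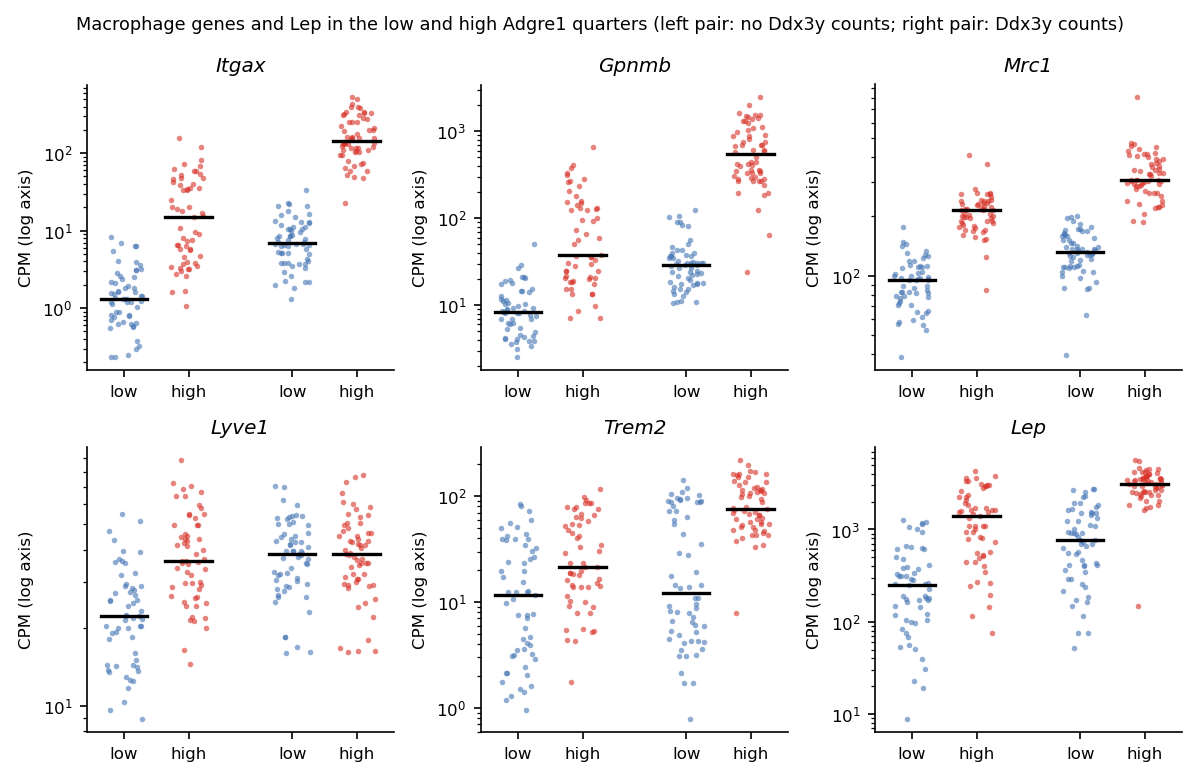
Level (CPM, log axis) of 5 macrophage genes and Lep in each library of the low (blue) and high (red) Adgre1 groups, Ddx3y-negative on the left and Ddx3y-positive on the right of each panel; black lines are medians. In the right groups 59 of 60 high libraries lie above every low one for Itgax and 57 of 60 for Gpnmb, Lyve1 is level there (38.6 and 38.5 CPM), and Trem2 is spread widely in both low groups.

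Outside the lists, the 10 genes with the largest rise were Tph2, Myh15, Tm4sf19, Gm20056, Rgs1, Ubd, Art2a, Mstn, Tnip3 and Il13ra2. Tph2, the enzyme that starts serotonin synthesis in neurons, had 0.209 (0 to 2.87) CPM in low and 1.497 (0 to 177.2) CPM in high Ddx3y-negative libraries, and 0.518 (0 to 15.3) and 33.3 (0.0431 to 113.7) CPM in Ddx3y-positive libraries. Its change was 5.01 ± 0.49 and 4.35 ± 0.46 (edgeR adjusted p = 3.59e-19 and 3.63e-17), and its slope over the middle libraries was 3.85 ± 0.55, so the rise was also seen in mice outside the groups. Myh15, a myosin heavy chain, changed by 4.64 and 4.40, and Mstn, the muscle growth inhibitor myostatin, by 3.16 and 3.41 from medians of 0.0225 and 0.0914 CPM. Of 12 skeletal muscle genes, 0 rose in either stratum with all libraries, and 2 and 1 rose without the libraries holding other tissue.

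Of the other leading genes, Rgs1, which damps chemokine receptor signals, went from 0.505 (0.0491 to 1.45) to 2.86 (0.297 to 39.1) CPM and from 1.75 (0.440 to 6.44) to 30.2 (4.14 to 91.7) CPM (change 3.14 ± 0.23 and 3.98 ± 0.23). Ubd, a ubiquitin-like modifier induced by cytokines, changed by 3.34 and 3.88, Tnip3, a partner of the NF-kB inhibitor A20, by 2.52 and 3.25, and Il13ra2, the decoy receptor of interleukin 13, by 2.38 and 3.26. Tm4sf19, a membrane protein of the transmembrane 4 L6 family, changed by 4.25 and 4.42. Gm20056 is annotated as a processed pseudogene and Art2a, an ADP-ribosyltransferase, as a polymorphic pseudogene, so their counts (3.71 and 4.30, 2.80 and 4.27) are uncertain where reads are shared with related genes.

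The promoter windows of the genes that rose together were read from RefSeq (GRCm38.p6), as the 250 bases before the annotated start. The transcription factor PU.1, encoded by Spi1, controls many macrophage genes and binds sites with the core GAGGAA, and AP-1 factors bind TGANTCA. Of the 569 genes that rose 2-fold in both strata, 410 had a window in the table. GAGGAA was present on either strand in 40.7% of these 410 genes, 26.4% of the 12670 tested genes with a window and 25.9% of all 27025 genes of the table. The longer form GAGGAAGT, which contains the core, was present in 9.76%, 3.01% and 2.79%, and TGANTCA in 11%, 5.94% and 7.82%. Of 3 further motifs, the NF-kB motif was in 1.22%, 0.442% and 0.414%, TCACGTG, bound by lysosomal regulators of the MiT/TFE family, in 2.44%, 5.30% and 3.58%, and its variant TCATGTG in 4.39%, 2.53% and 3.72%. Genes with several starts have more than 1 window, and a match is a description of the letters, not evidence of binding. The 4 windows printed below were picked by hand and each holds a match, so they do not stand for the shares above. The windows of 4 phagocyte genes with large changes are shown, since the results turn on such genes, with the matches to GAGGAA, GAGGAAGT and TGANTCA in capitals (a match on the other strand appears as its reverse complement), each written 5′ to 3′ on the strand of the gene and ending at the base before the start: Mmp12 at chr9:7344147-7344396 (plus strand, the first of 2 starts), Cd68 at chr11:69666171-69666420 (minus strand), Itgax at chr7:128129300-128129549 (plus strand) and Ctss at chr3:95526536-95526785 (plus strand).
Mmp12: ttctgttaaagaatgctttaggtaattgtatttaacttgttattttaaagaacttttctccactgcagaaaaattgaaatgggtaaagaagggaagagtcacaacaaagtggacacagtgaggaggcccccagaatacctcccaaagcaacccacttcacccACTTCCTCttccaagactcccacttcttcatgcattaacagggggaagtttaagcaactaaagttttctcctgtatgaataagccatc
Cd68: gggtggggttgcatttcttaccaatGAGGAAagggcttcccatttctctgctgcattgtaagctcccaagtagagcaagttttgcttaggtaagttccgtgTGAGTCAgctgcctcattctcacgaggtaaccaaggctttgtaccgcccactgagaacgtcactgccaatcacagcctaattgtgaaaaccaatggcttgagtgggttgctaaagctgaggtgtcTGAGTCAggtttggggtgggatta
Itgax: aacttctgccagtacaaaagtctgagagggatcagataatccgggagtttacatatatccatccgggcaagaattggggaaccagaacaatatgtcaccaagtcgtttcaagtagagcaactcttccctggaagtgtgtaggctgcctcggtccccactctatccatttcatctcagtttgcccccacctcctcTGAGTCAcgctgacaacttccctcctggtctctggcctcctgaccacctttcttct
Ctss: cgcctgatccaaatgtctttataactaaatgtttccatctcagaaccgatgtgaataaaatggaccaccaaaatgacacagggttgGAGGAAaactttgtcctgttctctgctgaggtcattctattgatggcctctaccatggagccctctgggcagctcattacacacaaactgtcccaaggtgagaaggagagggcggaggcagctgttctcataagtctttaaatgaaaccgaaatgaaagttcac
The match nearest to the start lies 88 bases before it in Mmp12, 24 in Cd68 and 56 in Itgax. Cd68, the scavenger receptor of macrophage endosomes, named after its values were seen, went from 14.6 (6.17 to 32.6) to 47.6 (20.7 to 233.6) CPM and from 28.7 (9.09 to 54.4) to 180.3 (60.4 to 527.3) CPM (change 1.59 ± 0.11 and 2.67 ± 0.11), and the lysosomal protease Ctss changed by 1.84 and 2.73.

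Receptors, chemokines and cytokine genes rose in most cases. Of the 20 Fc, scavenger and integrin genes of phagocytes, 18 and 17 rose and 0 and 2 fell (median change 1.37 and 1.98). Itgad, the alpha subunit of the integrin CD11d, led them with 4.47 ± 0.44 and 4.77 ± 0.43. Of the 19 chemokines, 15 and 14 rose and 0 fell (median 1.05 and 1.21), led by the monocyte attractant Ccl7, which went from a median of 0.322 to 1.53 CPM and from 1.30 to 8.90 CPM (change 2.46 and 2.65). Cxcl12, the most abundant chemokine and a product of stromal cells, did not pass the test (-0.04 ± 0.07 and 0.05 ± 0.06, but 0.25 and 0.15 with the total count only). Of the 22 Toll-like receptor, inflammasome and cytokine genes, 20 and 21 rose and 0 fell (median 0.66 and 1.23). The leading gene there encodes an inhibitor: Il1rn, the antagonist of the interleukin 1 receptor, went from 0.602 (0.0638 to 2.44) to 1.95 (0.214 to 26.9) CPM and from 1.17 (0 to 6.28) to 25.2 (3.05 to 89.1) CPM, a change of 2.57 ± 0.25 and 4.19 ± 0.25. The most abundant of that list, the NF-kB subunit Nfkb1, changed by 0.17 and 0.20. Tnf and Il1b, named after their values were seen, changed by 1.48 and 1.48, and by 0.52 and 0.84, and both were scarce.

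Most monocyte genes rose. Of 15, 12 rose and 2 fell in Ddx3y-negative libraries, and 11 and 2 in Ddx3y-positive ones (median 1.05 and 1.13). Over the middle libraries 6 of the 15 rose and 1 fell. The chemokine receptor Ccr2 went from 8.15 (2.93 to 19.8) to 27.6 (8.68 to 68.1) CPM and from 15.01 (3.69 to 33.3) to 68.04 (26.5 to 167.1) CPM (change 1.41 ± 0.12 and 2.03 ± 0.11), and Fn1, fibronectin, which stromal cells make too, by 1.12 and 1.13. Ly6c2 changed by only 0.36 ± 0.11 and 0.01 ± 0.11. Of the 17 complement genes, 14 and 13 rose and 1 and 2 fell (median 0.77 and 0.74). The list shares C1qa, C1qb and C1qc with the macrophage identity list and Itgax with the lipid-associated list. Cfd, adipsin, a protease that adipocytes secrete, was among those that fell. It went from 2921 (1122 to 9034) to 1954 (199.1 to 7017) CPM in Ddx3y-negative libraries and from 1998 (291.1 to 6467) to 223.9 (40.9 to 2474) CPM in Ddx3y-positive ones, a change of -0.90 ± 0.19 and -2.86 ± 0.19 (edgeR adjusted p = 5.17e-06 and 4.3e-34).

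Genes of antigen presentation and of other leukocytes rose as well. Of 16 MHC class II and dendritic cell genes, 14 and 12 rose and 1 and 2 fell (median 1.17 and 1.27), with the invariant chain Cd74 at 1.18 and 1.29 and the peptide-loading subunit H2-DMb1 at 1.41 and 1.79. Of 21 T and NK cell genes, 21 and 20 rose and 0 fell (median 1.02 and 0.68), and Trac, the constant part of the T cell receptor alpha chain, changed by 0.59 and 1.84. Of 17 B and plasma cell genes, 16 rose in Ddx3y-negative libraries but 7 in Ddx3y-positive ones (median 1.23 and 0.37). The test of the difference called 9 of the 17 more negative in Ddx3y-positive libraries and 0 more positive, against 32.4% and 22.4% of all genes. The immunoglobulin heavy chain Ighm went from 25.1 (6.74 to 201.3) to 158.9 (26.8 to 802) CPM and from 93.6 (12.8 to 496.1) to 204.9 (44.4 to 2717) CPM, and Cd22, a B cell inhibitory receptor, changed by 1.72 and 1.28. Summed over the list, T and NK genes had 17.4 (5.16 to 47.7) CPM in low and 35.5 (15.5 to 147.6) CPM in high Ddx3y-negative libraries, and 21.4 (7.17 to 79.5) and 34.9 (8.27 to 195.2) CPM in Ddx3y-positive ones. For B and plasma cell genes the sums were 203.5 (120.7 to 502.1) and 413.9 (238.4 to 1499) CPM, and 370.9 (182.4 to 1060.0) and 505.7 (238.997 to 6479) CPM. Over the middle libraries 1 T and NK gene and 1 B cell gene rose, against 18 of 20 macrophage identity genes. The part of lymphocytes in the changes of genes that they share with macrophages was not tested.

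Of the 16 neutrophil and eosinophil genes listed, 10 passed the filter, of which 7 and 8 rose and 2 and 1 fell (median 0.94 and 0.83), with the calcium-binding protein S100a8 at 0.999 and 2.69 and the eosinophil ribonuclease Ear2 at 1.70 and 1.65. Of 12 mast cell genes, 6 and 9 rose and 0 and 2 fell (median 0.40 and 0.51). Over the middle libraries 1 of the 12 rose and 1 fell. The mast cell tryptase Tpsab1 changed by 0.64 and 1.25, and the receptor Kit by 0.14 (not called, but 0.43 and called with the total count only) and 0.19. Of 7 lymph node genes, 5 and 2 rose and 0 and 2 fell (median 0.78 and 0.21). Ltb, lymphotoxin beta, changed by 1.19 and 0.42, and the lymphatic chemokine Ccl21a by 0.78 and -0.79, the first of which was -0.04 under limma and 0.68, not called, without the libraries holding other tissue. Interferon response genes rose in 23 of 24 cases in Ddx3y-negative and in 14 in Ddx3y-positive libraries, and 0 fell in either (median 0.65 and 0.27). Over the middle libraries only 1 of the 24 rose with Adgre1 and 1 fell, against 17.3% and 17.7% of all genes. Oas1a, an antiviral RNA sensor, changed by 1.26 and 1.58.

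Genes of cell division formed one of the most uniform groups. All 20 rose in Ddx3y-positive libraries, 17 of them at least 2-fold, and 19 rose in Ddx3y-negative ones, 12 2-fold (median 1.06 and 1.49); 19 also rose over the middle libraries. Mki67 went from 5.64 (2.06 to 20.7) to 17.2 (3.71 to 79.7) CPM in Ddx3y-negative and from 9.60 (2.32 to 37.2) to 49.001 (24.3 to 100.6) CPM in Ddx3y-positive libraries, where 46 of 60 high libraries lay above every low one. Its change was 1.42 ± 0.15 and 1.99 ± 0.15 (edgeR adjusted p = 2.14e-17 and 8.48e-30). Pcna, the DNA polymerase clamp and the most abundant gene of the list, changed by 0.28 and 0.69. Of 18 p53 and senescence genes, 13 and 14 rose and 0 and 2 fell (median 0.33 and 0.48). Ccng1, cyclin G1, changed by 0.28 and 0.49.

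Matrix genes rose in both strata: 30 and 30 of 34 were called higher, 0 and 3 lower (median 0.88 and 1.13), and 30 rose over the middle libraries. Sparc, a collagen-binding protein and the most abundant of them, went from 1329 (602.2 to 2305) to 2680.3 (1000.5 to 4853) CPM and from 2074 (602.003 to 4035) to 4016 (1394 to 5469) CPM, a change of 0.83 ± 0.09 and 0.77 ± 0.08. Fibrillar collagens, named after their values were seen, changed by 1.25 and 1.77 (Col1a1) and by 0.88 and 1.55 (Col3a1), and the protease inhibitor Timp1 by 2.13 and 3.07.

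Lysosomal genes rose with a larger median in Ddx3y-positive libraries. Of 28 lysosome and phagosome genes, 18 rose and 3 fell in Ddx3y-negative libraries with a median of 0.17, and 26 rose and 1 fell in Ddx3y-positive libraries with a median of 0.94. The test of the difference called 24 of them more positive in Ddx3y-positive libraries and 1 more negative. With the total count only, 27 and 27 rose (median 0.46 and 1.04), and the difference was positive for 21 and negative for 3. The cathepsin Ctsb, the most abundant of them, went from 1312 (831 to 1729.5) to 1648 (1298 to 2894) CPM and from 1385 (552.2 to 1801) to 2990.1 (1538 to 4964) CPM (change 0.22 ± 0.05 and 1.01 ± 0.05). The next lists lie closer to all genes, of which 38% and 29.4% rose and 28.9% and 40% fell. In the sterol list 7 genes rose and 7 fell in Ddx3y-negative libraries, and 9 and 6 in Ddx3y-positive ones, of 16 (median 0.07 and 0.24; 12 rose and 1 fell in the first stratum with the total count only). Soat1, the enzyme that esterifies cholesterol for storage, rose in both (1.22 ± 0.09 and 1.90 ± 0.09), while the lipid carrier Apoe rose in the first and fell in the second stratum (0.42 and -0.50). Of 14 iron genes, 8 and 5 rose and 4 and 3 fell (median 0.29 and 0.02). Slc11a1, the divalent metal transporter of phagosomes, changed by 1.11 and 1.75, and transferrin (Trf) by -0.07 (not called) and -0.60. Genes of the unfolded protein and integrated stress responses were divided, with 9 and 9 of 21 higher and 8 and 8 lower (median 0.03 and 0.06; 13 higher and 3 lower in the first stratum with the total count only). The chaperone Hspa5 changed by 0.36 and 0.67, and the stress factor Atf3 by 0.38 ± 0.17 and 2.65 ± 0.17; without mouse DO021 the first of these was no longer called (0.35).

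**Figure D3:**
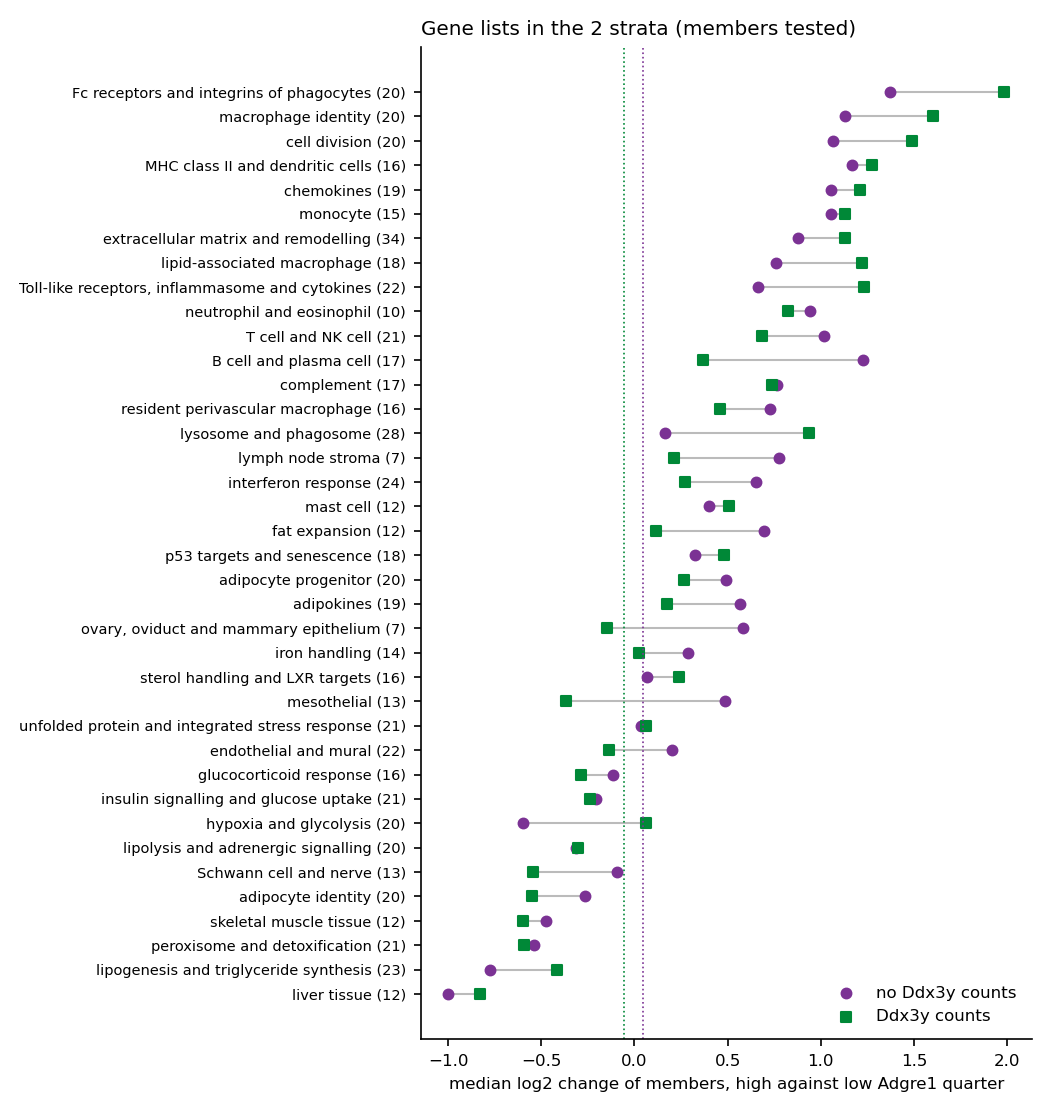
Median log2 change of the tested members of each gene list (number in parentheses), high against low Adgre1 group, in Ddx3y-negative (purple circles) and Ddx3y-positive (green squares) libraries; dotted lines are the medians of all genes (0.05 and -0.06). The list of Fc receptors and integrins of phagocytes has the highest median in both strata, followed by the B cell and MHC class II lists in Ddx3y-negative and by the macrophage identity and cell division lists in Ddx3y-positive libraries, and the mesothelial list has medians of opposite sign.

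Among the other cells of the tissue, progenitor genes rose in part. Of 20, 16 rose and 1 fell in Ddx3y-negative libraries, and 11 rose and 6 fell in Ddx3y-positive ones (median 0.49 and 0.27). The proteoglycan Lum changed by 0.91 and 1.63, and Gsn, gelsolin, an actin-severing protein and the most abundant of the list, by 0.20 and -0.62. Endothelial and mural genes rose in 14 and fell in 4 of 22 cases in Ddx3y-negative libraries, and rose in 3 and fell in 13 in Ddx3y-positive ones (median 0.20 and -0.14). Plvap, the diaphragm protein of fenestrated vessels, was among those that rose in both (0.82 and 0.37). The mesothelial list, which marks the cell layer on the surface of the fat pad, turned in direction between the strata: 13 of 13 genes rose in Ddx3y-negative libraries, 0 rose and 11 fell in Ddx3y-positive libraries, (median 0.49 and -0.37), and all 13 differed between the strata, also with the total count only (13 and 0 called in the first, 1 and 7 in the second). Upk3b went from 69.4 (20.9 to 132.8) to 114.5 (40.1 to 331.2) CPM and from 72.4 (15.03 to 197.1) to 61.2 (19.4 to 160.7) CPM, and the keratin Krt18 changed by 0.46 and -1.17; without mouse DO021 the first was no longer called (0.43). Summed over the list, mesothelial genes had 248.5 (99.04 to 463.6) and 394.5 (175.5 to 972) CPM, and 331.6 (162.8 to 645.7) and 277.6 (142.5 to 589.3) CPM. In the middle libraries 0 of them rose and 0 fell, but the slope fitted there is common to both strata. It cannot show changes that turn in direction between the strata. Of 13 Schwann cell and nerve genes, 4 and 3 rose and 5 and 8 fell (median -0.10 and -0.55; 6 rose and 2 fell in the first stratum with the total count only, median 0.17), with the cadherin Cdh19 at -0.75 and -1.45 and the myelin protein Pmp22 at 0.29 and 0.43. Among all genes 38% and 29.4% rose and 28.9% and 40% fell.

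Adipocyte genes fell in Ddx3y-positive libraries and were divided in Ddx3y-negative ones. In the former all 20 identity genes fell (median -0.55), while 12 fell and 3 rose in the latter (median -0.26, but 6 fell and 9 rose with the total count only). The fatty acid binding protein Fabp4, the most abundant of them, went from 9118 (6268 to 12586) to 9595 (6093 to 12687) CPM and from 10445 (4088 to 14694) to 8263 (5245 to 12016) CPM; its change was -0.18 ± 0.05, which turned to 0.10 with the total count only, and -0.41 ± 0.05. Adipoq, adiponectin, had 1879 (824 to 3037) and 2522 (1146 to 3888) CPM in Ddx3y-negative and 2228 (637.4 to 3148) and 1319.7 (594.6 to 2837) CPM in Ddx3y-positive libraries. Its change was 0.15 ± 0.08, not called (edgeR adjusted p = 0.0681; 0.42 and called with the total count only, 0.17 and called without mouse DO021), and -0.82 ± 0.08 (edgeR adjusted p = 2.69e-21). Cidea, a lipid droplet protein abundant in brown and beige adipocytes, fell from 299.6 (13.2 to 849.8) to 26.3 (1.04 to 244.1) CPM in Ddx3y-negative libraries and from 15.7 (4.11 to 89.996) to 9.65 (1.71 to 50.3) CPM in Ddx3y-positive ones (-3.10 ± 0.24 and -0.91 ± 0.22).

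Secreted factors divided. Of 19 adipokine genes, 12 rose and 5 fell in Ddx3y-negative libraries, and 9 rose and 6 fell in Ddx3y-positive ones (median 0.57 and 0.17). Lep, leptin, the hormone released in proportion to fat stores, went from 253.2 (8.74 to 1267) to 1402 (74.7 to 4352) CPM and from 768 (51.6 to 2748) to 3139 (147.4 to 5701) CPM, a change of 1.92 ± 0.23 and 1.59 ± 0.22. Within libraries the log2 ratio of Lep to Adipoq differed by 1.93 and 2.92 (permutation p = 1e-05, adjusted p = 1.33e-05, in both). Markers of fat expansion rose in 11 of 12 cases in Ddx3y-negative libraries, with 0 falling, and in 5 in Ddx3y-positive libraries, with 4 falling (median 0.70 and 0.12). The Wnt inhibitor Sfrp5 went from 2.84 (0.452 to 62.9) to 71.98 (1.58 to 264.2) CPM in Ddx3y-negative libraries and had 119.999 (5.43 to 379.7) and 157.6 (33.3 to 439.7) CPM in Ddx3y-positive ones. Its change was 2.93 ± 0.28 in the first and 0.22 ± 0.25, not called, in the second, a difference of -2.71 ± 0.37 (edgeR adjusted p = 4.46e-11). Cav1, the main protein of caveolae, changed by 0.46 and 0.02, of which the second was not called.

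Genes of fat synthesis fell most in Ddx3y-negative libraries: 19 of 23 fell, 8 at least 2-fold, and 1 rose (median -0.78), against 14 that fell and 3 that rose in Ddx3y-positive ones (median -0.42). Acacb, the mitochondrial acetyl-CoA carboxylase, fell from 1347 (466.5 to 3006) to 314.6 (128.3 to 1610.2) CPM and from 481.96 (188.6 to 1326) to 232.99 (125.1 to 503.6) CPM (-2.002 ± 0.14 and -1.18 ± 0.13). Scd1, a fatty acid desaturase and the most abundant gene of the list, changed by -0.37 and -0.78 (-0.10, not called, in the first stratum with the total count only). In the lipolysis list 11 and 12 of 20 fell and 5 and 3 rose (median -0.31 and -0.31; 7 fell and 8 rose in the first stratum with the total count only), with the triglyceride lipase Pnpla2 at -0.61 and -0.86 and the beta-3 adrenergic receptor Adrb3 at -0.40, not called with the total count only, and -1.54. In the insulin list 12 and 15 of 21 fell and 2 and 4 rose (median -0.21 and -0.24; 7 fell and 10 rose in the first stratum with the total count only), and glycogen synthase (Gys1) fell in both (-0.92 ± 0.06 and -0.87 ± 0.06).

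Glycolytic and hypoxia genes fell in 15 and rose in 4 of 20 cases in Ddx3y-negative libraries (median -0.60) and fell in 6 and rose in 5 in Ddx3y-positive ones (median 0.06; 5 fell and 7 rose with the total count only). Aldoa, aldolase, changed by -0.76 ± 0.07 and 0.04 ± 0.07, the second 0.14 and called with the total count only, and the oxygen-sensing hydroxylase Egln3 by -1.25 and -0.61. Peroxisomal and detoxifying enzymes fell in both, 15 and 18 of 21, with 3 and 1 rising (median -0.54 and -0.59). Cyp2e1, an ethanol- and ketone-oxidising cytochrome, fell from 1972 (813 to 7734) to 1032 (127.9 to 6269.6) CPM and from 2564 (115.7 to 10813) to 158.04 (20.001 to 2807) CPM, a change of -1.11 ± 0.23 and -3.31 ± 0.24 (edgeR adjusted p = 5.53e-06 and 1.53e-30). Glucocorticoid-responsive genes fell in 6 and 9 and rose in 4 and 2 of 16 cases (median -0.12 and -0.29; 2 fell and 7 rose in the first stratum with the total count only), led by Pdk4, the kinase that holds back pyruvate oxidation (-1.85 and -0.33, the second -0.23 and not called with the total count only). Of all genes, 28.9% and 40% fell and 38% and 29.4% rose.

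Outside the lists, the 10 genes with the largest fall were Acsm3, Irf4, Slc2a5, Tuba8, Mfsd2a, Rassf6, Slc27a2, Elf5, Gm10032 and n-R5-8s1. Acsm3, an acyl-CoA synthetase for medium-chain fatty acids, fell from 92.2 (18.5 to 317.02) to 14.8 (0.496 to 135.1) CPM and from 23.7 (4.33 to 164.1) to 2.90 (0.911 to 27.5) CPM (-2.52 ± 0.23 and -3.12 ± 0.23), and also over the middle libraries (slope -1.23 ± 0.24). Rassf6, a Ras-association domain protein, fell in the same way (-1.94, -2.72, slope -1.45 ± 0.23). Irf4, a transcription factor of lymphocytes and macrophages that is also present in adipocytes, changed by -2.09 ± 0.30 and -2.97 ± 0.30, but was not called over the middle libraries (-0.23 ± 0.35). It spread from 62.3 (6.07 to 777) CPM in low to 17.1 (6.77 to 295.6) CPM in high Ddx3y-negative libraries, and from 30.6 (6.85 to 1208) to 11.9 (7.28 to 154.9) CPM in Ddx3y-positive ones, with some low libraries far above their median. The fructose transporter Slc2a5 changed by -2.44 and -2.81, the lysophospholipid transporter Mfsd2a by -3.22 and -1.67, the fatty acid activating enzyme Slc27a2 by -3.27 and -1.07, the tubulin Tuba8 by -2.98 and -2.37, and the long non-coding RNA Gm10032 by -3.79 and -1.73. Elf5, an epithelial transcription factor (-1.18 and -3.76, the first -0.92 and not called with the total count only), reached 250.5 CPM in 1 low library against a median of 0.239, and n-R5-8s1, a 5.8S ribosomal RNA gene (-3.69 and -3.31), rested on the 2 libraries rich in ribosomal RNA: without them it changed by -0.99, not called, and 0.17, not called.

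The strata, read as females and males, differed in the size or direction of the change for many genes. Their low and high groups also lay unequally far apart in Adgre1 (medians 21.9 and 66.1 CPM, against 37.8 and 183.7 CPM). The test of the difference called 10063 genes, 4119 with a more positive (22.4%) and 5944 with a more negative change (32.4%) in Ddx3y-positive libraries, and 1547 of them differed at least 2-fold. With the total count only, 15.5% of the called differences were positive instead of 40.9%. The 5 genes with the smallest p in each direction were Lipa, Adssl1, Perm1, BC028528 and Ciao2a, and Smarca2, Npdc1, Igfbp4, Atp2b4 and Rhbdl1.

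Lipa, the lysosomal lipase that frees cholesterol and fatty acids from ingested lipid, stood at 78.97 (56.3 to 131.1) CPM in low and 97.9 (71.6 to 336.004) CPM in high Ddx3y-negative libraries, with wide overlap. In Ddx3y-positive libraries it was 74.99 (26.4 to 102.2) CPM in low and 289.7 (101.8 to 705) CPM in high, and 59 of 60 high libraries lay above every low one. The change was 0.17 ± 0.08 and 1.89 ± 0.08, a difference of 1.72 ± 0.11 (edgeR adjusted p = 6.89e-35). Within the blocks of mouse numbers it differed by 0.21 to 0.60 and by 1.84 to 2.04 on the scale of log2 CPM, and over the middle libraries the slope was 0.63 ± 0.07. That slope is common to both strata, so it does not show whether Lipa follows Adgre1 in each of them. The change in Ddx3y-negative libraries was near the threshold (edgeR adjusted p = 0.044), and lay beyond it without the 2 libraries rich in ribosomal RNA (0.0515) and with DESeq2 (0.093), while with the total count only it was 0.46 and called. Adssl1, an enzyme of the purine nucleotide cycle, went from 8.76 (1.52 to 24.6) to 6.09 (1.93 to 20.05) CPM in Ddx3y-negative and from 3.60 (1.29 to 7.46) to 18.7 (4.46 to 60.1) CPM in Ddx3y-positive libraries, and so fell in the first (-0.99 ± 0.13) and rose in the second (2.31 ± 0.13). Perm1, a regulator of oxidative metabolism in muscle, went from 7.87 (0.460 to 31.2) to 1.27 (0.350 to 10.6) CPM and from 0.972 (0.176 to 6.26) to 3.01 (0.762 to 9.42) CPM (-2.70 ± 0.19 and 1.55 ± 0.18). The uncharacterised gene BC028528 changed by -0.52 and 1.20, and Ciao2a, of the cytosolic iron-sulfur assembly machinery, by -0.66 and 0.31.

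The 5 genes of the other direction rose in Ddx3y-negative and fell in Ddx3y-positive libraries in 4 cases: Atp2b4, a calcium pump of the plasma membrane (0.34 and -0.71), Smarca2, an ATPase of the SWI/SNF chromatin remodelling complex (0.31 and -0.37), Npdc1, a membrane protein of neurons (0.34 and -0.41), and Igfbp4, a binding protein of insulin-like growth factors (0.79 and -0.22, the second -0.13 and not called with the total count only). Rhbdl1, a rhomboid-like protein, changed by 0.04 ± 0.11, not called (0.28 and called with the total count only), and -1.76 ± 0.11.

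The low groups of the strata were themselves unlike in thermogenic genes. Ucp1, the uncoupling protein of brown and beige fat, named after its values were seen, stood at 799 (10.2 to 3308) CPM in low and 41.2 (0.240 to 1419) CPM in high Ddx3y-negative libraries, and at 2.96 (0.0650 to 54.1) and 5.92 (0.0817 to 62.2) CPM in Ddx3y-positive ones. It changed by -3.20 ± 0.37 in the first and changed by 0.54 ± 0.34, not called, in the second (difference 3.74 ± 0.49, edgeR adjusted p = 1.79e-11). The levels of Ucp1, of Cidea and of the mitochondrially encoded transcripts thus moved together with the groups in Ddx3y-negative libraries, beside the falls of the fat synthesis and glycolysis lists there. Their part in those falls was not tested.

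**Figure D4:**
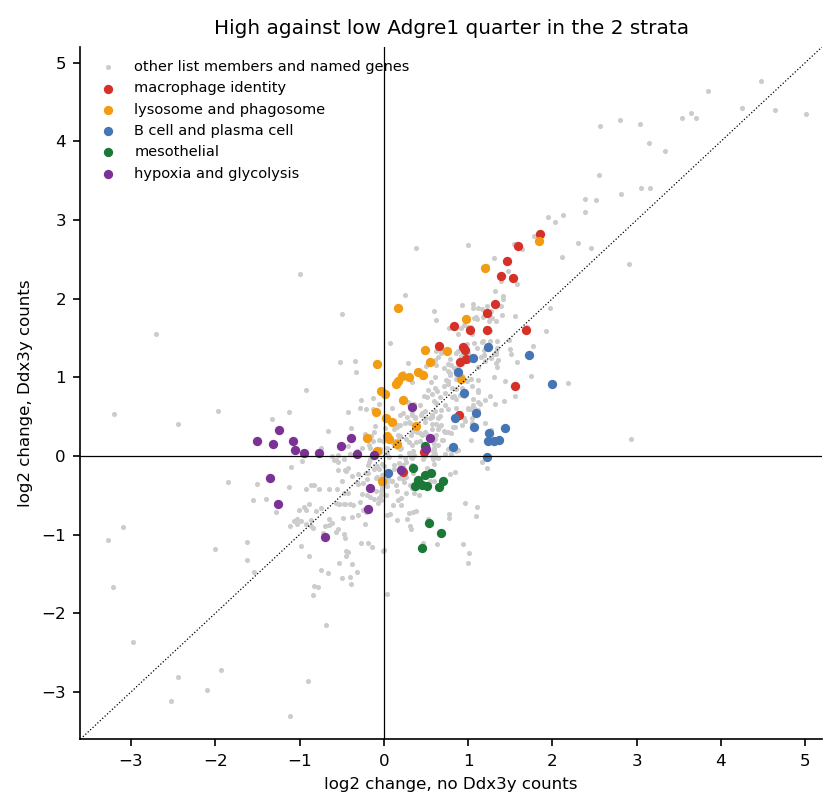
Log2 change of high against low Adgre1 group in Ddx3y-negative (horizontal) and Ddx3y-positive libraries (vertical) for list members and named genes, of which 6 lie outside the axes; colours mark 5 lists and the dotted line equal change. Most lysosomal genes lie above the line, most B cell and mesothelial genes below it, and most glycolysis genes to the left of zero.

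**Figure D5:**
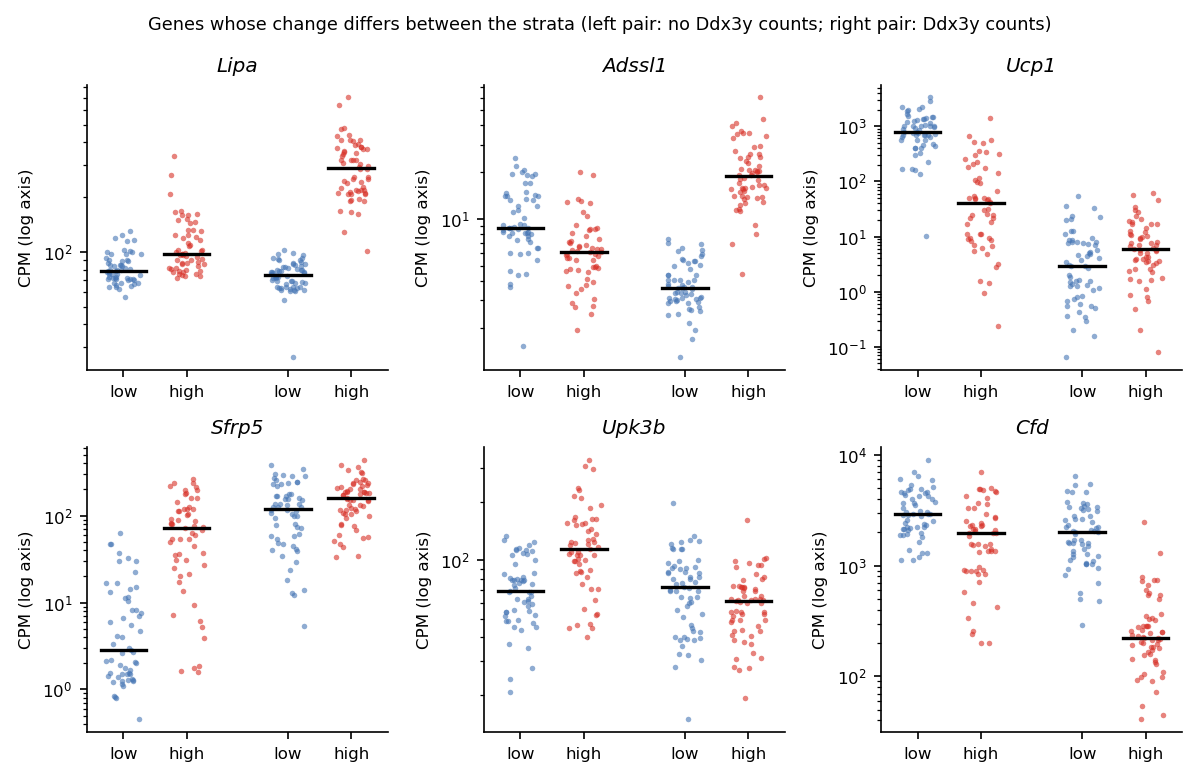
Level (CPM, log axis) of 6 genes in each library of the low (blue) and high (red) Adgre1 groups, Ddx3y-negative on the left and Ddx3y-positive on the right of each panel; black lines are medians. Lipa and Adssl1 rise in the right pair, Ucp1 falls in the left pair (medians 799 to 41.2 CPM), and Cfd falls most in the right pair (1998 to 223.9 CPM).

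Transcripts of other organs were tested as lists too. Of all genes, 28.9% fell and 38% rose in Ddx3y-negative libraries, and 40% fell and 29.4% rose in Ddx3y-positive ones. Of 12 liver genes, 5 and 4 fell and 0 rose (2 and 1 without the libraries holding other tissue), with the plasma protein genes Alb at -0.84 (not called) and -0.92 (-0.16, not called, without them) and Serpina3k at -1.54 and -1.48. Of 12 muscle genes, 3 and 5 fell (1 and 3 without those libraries), which with all libraries is near the share of all genes. Acta1, skeletal actin, changed by 0.39 (not called, but 1.12 and called without those libraries) and -0.70, and the calcium pump Atp2a1 by -0.50 (not called) and -1.55, which turned to 0.39, not called, without the libraries holding other tissue. The 1 pancreas gene that passed the filter, the elastase Cela1, rose by 0.93 and 1.02. Of 14 genes of male accessory glands 3 passed the filter, of which 0 and 3 fell. Ceacam10 had a median of 0.262 CPM in low Ddx3y-positive libraries but reached 15945 CPM in 1 of them, and its change of -7.95 came to -1.32 without the libraries holding other tissue. In all, 5 low and 1 high Ddx3y-positive libraries held accessory gland transcripts. Of the 7 tested ovary, oviduct and mammary genes, 5 rose and 0 fell in Ddx3y-negative and 1 rose and 3 fell in Ddx3y-positive libraries. The oxytocin receptor Oxtr, which that list holds and adipocytes also express, changed by 0.62 and 1.73, the first of which was 0.51 and not called without the libraries holding other tissue.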

How the data were processed

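Polyadenylated RNA of adipose tissue from 468 mice was sequenced, 1 library a mouse, of which 227 had no count of Ddx3y and 241 did. The low and high groups hold 234 of the 468 libraries, and 113 and 121 lie between them. Per the labels and the methods of the study, the authors aligned the reads to a transcriptome joining the founder strains (EMASE, run by GBRS, on GRCm38) and deposited expected counts per gene, without scaling. Neither tool versions nor a strand setting could be taken from the labels or methods, and per the methods DESeq2 served for a variance-stabilizing transform, which the deposited counts have not had. Reads shared by related genes are divided among them in such estimates, and 66.8% of values were whole within 1e-06. The table has 23180 genes.

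The members, gene lists and tests were chosen with earlier results of these data known. Counts were rounded to whole numbers. Genes with at least 10 counts in at least 50% of libraries passed the filter (18380), and Adgre1 and genes of chromosome Y were left out, which left 18370. The 4 groups were fitted together with edgeR 4.0.16 (TMM, quasi-likelihood F test, R 4.3.3), with contrasts of high against low in each stratum and their difference. A single slope on log2 Adgre1, common to both strata and with the stratum as a term, was fitted to the middle libraries. A gene was called at an adjusted p under 0.05, and the prior count was 2. The fits were tested on simulated data. Each of 40 gene lists is described by its counts and median. Some genes, such as Itgax, Mrc1, Mmp12 and Fn1, are members of several lists, so the counts of the lists are not independent. The text names, per list, the most abundant member and the member with the largest change, the 10 genes outside the lists with the largest rise and fall, the 5 with the lowest p for each direction of the difference, and the genes of the ratios, all with a mean of at least 1 CPM. Some genes that this rule names are not reported here. Any other gene named with its values was chosen after they were seen. A library was said to hold another tissue where summed markers of that tissue exceeded 100 CPM and 10 times the median. Alternatives were DESeq2 1.42.0, limma 3.58.1, other scalings, filters, groupings and libraries left out. Where libraries were left out, the groups were chosen anew from the remaining ones, so other libraries could leave or enter a group. Libraries are separate mice, and the study's covariates are not in the labels, so blocks of mouse and library numbers stood in for batches as 1 alternative each. The number of libraries and their depth set the precision.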

Additional observations from a re-analysis of the deposited data

Results flagged for a closer look

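The change with Adgre1 differed between Ddx3y-negative (read as female) and Ddx3y-positive (read as male) libraries, by the edgeR test of the interaction, in 10063 genes. Single values are differences in log2 change, Ddx3y-positive minus Ddx3y-negative libraries. Toward a more positive change in Ddx3y-positive libraries they were 4.25 for Perm1, 3.31 for Adssl1, 1.72 for BC028528, 1.72 for Lipa and 0.98 for Ciao2a. Toward a more negative one they were -1.79 for Rhbdl1, -1.06 for Atp2b4, -1.01 for Igfbp4, -0.75 for Npdc1 and -0.68 for Smarca2. Among genes named after their values were seen, the difference was 3.74 for Ucp1, 0.88 for Nckap1l and 0.57 for Cd48. With the total count in place of TMM, differences shift toward negative values (the median over all genes is -0.25). Adgre1 spanned different ranges in the strata, a median of 21.9 to 66.1 CPM against 37.8 to 183.7 CPM. With a slope per doubling of Adgre1 over all libraries in place of the groups, 10332 genes differed between the strata.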

How the results depend on the processing

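Over the alternatives the number of called genes ranged from 7269 to 14344 in Ddx3y-negative libraries, from 7216 to 14346 in Ddx3y-positive libraries, from 4647 to 7848 for the same direction in both, from 5905 to 11759 for the difference, from 4529 to 6569 for the middle libraries, and 1.97% to 7.14% of the genes tested changed 2-fold in both. The lowest values came with a filter of a mean of at least 10 CPM, which tests fewer genes (7216, 7269, 4647, 5905 and 1.97%). With the top and bottom 10% of the libraries 7.14% of genes changed 2-fold in both strata, and with 33.3% of them 2.31%, against 3.66% with 25%. Of the ratios, 27 of 28 alternative values kept their call, and Mki67 to Csf1r in Ddx3y-negative libraries gained one with groups of 33.3% (0.30, permutation adjusted p = 0.0268). Of the alternative values of single genes, 3867 kept direction and call, 33 gained and 78 lost the call, and 12 reversed. With the total count only, Cd36 (0.25), Cxcl12 (0.25) and Fabp4 (0.10) turned positive in Ddx3y-negative libraries. There Ccl21a was -0.035 under limma, and Ceacam10 2.01 with groups of 33.3% and 2.06 with groups on TMM-scaled Adgre1. In Ddx3y-positive libraries Atp2a1 was 0.19 under limma and 0.39 without the libraries holding other tissue, with or without mouse DO021, and n-R5-8s1 was 0.39 under limma, 0.17 with TMM-scaled Adgre1 and 0.17 without the libraries rich in ribosomal RNA. Beyond what the construction of each alternative shows, the cause was not tested. Leaving out mouse DO021, or the libraries rich in ribosomal RNA, was chosen after seeing the data. No paired analysis was possible because each mouse gave 1 library and the labels number no pairs. A slope over all libraries gave no 2-fold count, and fitting each stratum on its own gave no test of the difference.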
